A study of Mus musculus with 12 samples.

Results

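Of 13760 mouse genes tested, 1177 moved in opposite directions when a white and a brown fat cell line differentiated: 672 rose in the white line and fell in the brown line, and 505 did the reverse. These genes were found with the interaction contrast, which is the change of the brown line (adipocyte minus preadipocyte) minus the change of the white line. A gene was taken as an opposite mover if it was called in each line with opposite signs and called in the interaction. The interaction itself was called for 7025 genes. Membership was thus fixed by the measured changes, so the counts and values of the members describe these arrays and are not tests of their own.

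The white line was 3T3-L1, an established mouse line of fibroblast-like cells that store fat after hormonal induction, and it was compared with a line of brown adipocytes whose labels name no clone. Each line was measured 2 days after confluence, before induction (day 0), and again as adipocytes, on 3 arrays per group and 12 in all. The inducing mix stayed on for 3 days and in each line held IBMX, which raises cyclic AMP, at 0.5 mM and the glucocorticoid dexamethasone at 1 µM. The 3T3-L1 mix also held insulin at 1 µg/mL, kept for 2 more days, and these cells were harvested at day 10 after a spell in plain growth medium. The brown mix held insulin at 20 nM, the cyclooxygenase inhibitor indomethacin at 125 µM and the thyroid hormone T3 at 1 nM; insulin and T3 stayed in the medium until harvest at day 8. Line, serum, mix, harvest day and the medium after induction all differed between the sides, and their parts in the interaction cannot be told apart. The labels do not say that the 3 arrays of a group came from separate cultures, so the p-values measure the spread between these samples, which may be technical.

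During adipogenesis, growth-arrested preadipocytes switch on PPARG and the C/EBP factors, fill with triglyceride and lower many genes of the fibroblast matrix. In culture, 3T3-L1 cells divide again shortly after induction and then leave the cell cycle for good. Brown adipocytes differ from white ones by many mitochondria and by UCP1, which releases the proton gradient as heat.

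The markers of the labelled cell types bear on every value that follows. Adipoq, which encodes the adipocyte hormone adiponectin, gave signals of 13.1, 40.3 and 42.5 in 3T3-L1 preadipocytes and of 19089, 20791 and 16205 in the brown cells labelled preadipocytes, close to the 26904, 26089 and 26002 of brown adipocytes. Cebpa, an adipogenic transcription factor, likewise averaged 50.7 ± 12.4 (SD, n = 3) in 3T3-L1 preadipocytes against 2917 ± 169 in brown preadipocytes. The brown line thus started from high levels of these 2 adipocyte genes before induction. In bulk RNA a different share of cells with such a transcript and a different amount in each cell cannot be told apart. With 1 array left out at a time, the interaction was -9.13 to -8.63 for Adipoq, -6.46 to -6.04 for Cidec and -3.94 to -3.69 for Cebpa. It was smaller for the adipocyte genes Fabp4 (-1.94 to -1.81) and Pparg (-2.23 to -2.15). Of 19 preadipocyte and progenitor genes measured, 13 fell in 3T3-L1 and 16 in the brown line, and 0 rose in either. Of 13760 genes tested, 4285 and 4341 fell. Ucp1 was above its preadipocyte signals only in brown adipocytes, with 333, 468 and 346 against 30.5, 22.8 and 1.66 before induction. Its 3T3-L1 signals lay between 2.80 and 13.8 on all 6 arrays. Of the macrophage markers, 5 of 9 were measured. In the interaction 0 of these 5 were called (51.1% of all genes tested were), or 1 (Mrc1) under each of 3 other scalings. The 6 endothelial markers were all too dim to test, and of 4 skeletal muscle markers measured only Des, which encodes the filament protein desmin, was called.

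Arrays of a group correlated at 0.978 to 0.982 in log2 signal and arrays of different groups at 0.885 to 0.935. The 3' to 5' ratio of the beta-actin control, a sign of how far the RNA was copied, rose from 1.40 ± 0.0554 to 2.25 ± 0.151 in 3T3-L1 and from 1.49 ± 0.0626 to 2.42 ± 0.0478 in the brown line (exact permutation test, two-sided, p = 0.1 in each, the smallest that 3 against 3 arrays allow). That of Gapdh went from 0.861 ± 0.0342 to 0.828 ± 0.00689 and from 0.775 ± 0.0296 to 0.814 ± 0.0189. The part of these ratios in the results was not tested.

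Changes are differences of log2(signal + 16) between group means, with the SE of a limma fit over all 12 arrays; 1 unit is a 2-fold change, and changes of dim genes are understated on this scale. Genes were called at a Benjamini-Hochberg adjusted p under 0.05, and every opposite mover passed this in 3 contrasts by the way it was chosen. White differentiation called 61.2% of the genes tested, brown differentiation 58.7% and the interaction 51.1%. In the interaction, 3248 genes (23.6%) had a brown change above the white one and 3777 (27.4%) a brown change below it. The larger side depended on the scaling: with equal medians of the arrays 3707 lay above and 3154 below, and with scaling to the hybridization controls 3424 and 3368. The changes of the lines correlated over genes with a Pearson r of 0.477 and a Spearman rho of 0.472, given as a description since the genes share arrays.

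Opposite movement was a minority pattern within this difference. Of 5956 genes called in both lines, 4779 moved the same way and 1177 (19.8%) moved oppositely. The opposite movers made up 8.55% of all genes tested, 4.88% with white up and brown down and 3.67% with white down and brown up. They were 17.8% of the genes whose brown change lay below the white one and 15.5% of those with the brown change above. Most other interactions came from a change in 1 line only or from unequal changes of the same sign: 1010 genes fell in 3T3-L1 without a call in the brown line, and 812 rose in both but more in 3T3-L1. At least 2-fold movement in both lines was met by 124 genes with white up and brown down (0.901% of genes tested) and by 21 genes with white down and brown up (0.153%). These counts depended on the processing: the 124 became 79 with a pseudocount of 64, and the 21 became 33 with a pseudocount of 1, 11 with 64 and 10 with the mean of probe sets.

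**Figure D1:**
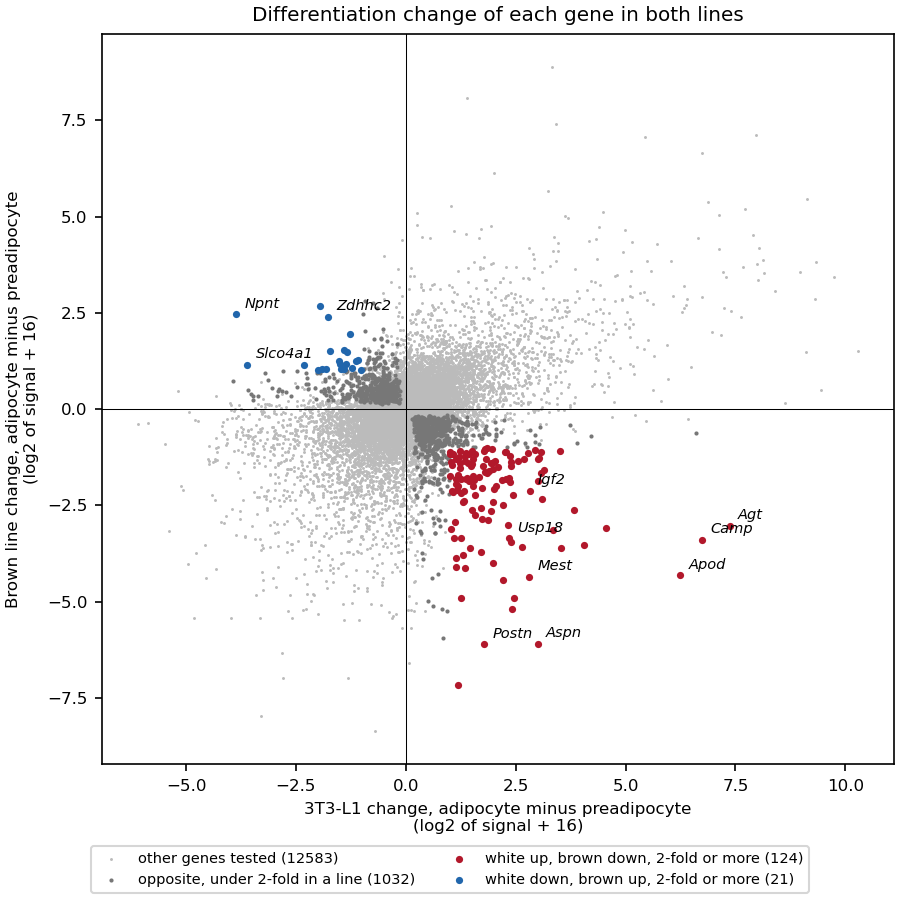
Change of each of the 13760 genes tested with differentiation in 3T3-L1 (horizontal axis) and in the brown line (vertical axis), both as adipocyte minus preadipocyte in log2 of signal plus 16. Red points are the 124 genes that rose in 3T3-L1 and fell in the brown line by at least 2-fold in each, blue points the 21 genes of the reverse kind, dark grey points the other opposite movers and light grey points all other genes; the lower right quadrant reaches much farther from the axes than the upper left.

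The largest movement was in genes that rose in 3T3-L1 and fell in the brown line, and 3 secreted proteins stood at the far end. Apod, which encodes a lipocalin that carries small hydrophobic molecules, had signals of 49.3, 7.72 and 6.88 in 3T3-L1 preadipocytes and 2940, 2348 and 2158 in 3T3-L1 adipocytes. In the brown line it had 770, 655 and 617 before and 11.4, 23 and 24.6 after differentiation. Within each line no array of the high group overlapped the low one, which the rule that named Apod required. The groups were near mirror images: white adipocytes and brown preadipocytes high, the other 2 groups near the floor. The changes were 6.24 ± 0.355 and -4.30 ± 0.355, an interaction of -10.54 ± 0.503, which was the most negative of all genes.

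Camp, which encodes the antimicrobial peptide precursor cathelicidin, went from 6.64, 12.4 and 6.60 to 2686, 2754 and 2343 in 3T3-L1. In brown cells it went from 363, 378 and 264 to 19.9, 25.8 and 8.17, giving an interaction of -10.13 ± 0.288. Agt encodes angiotensinogen, the precursor of the angiotensin peptides. Its signals were 6.09, 20.0 and 9.25 in 3T3-L1 preadipocytes, 4359, 4657 and 4422 in their adipocytes, 3684, 3000 and 3064 in brown preadipocytes and 464, 329 and 366 in brown adipocytes. Unlike Apod and Camp, Agt kept a signal well above the filter level in brown adipocytes, and its brown change of -3.03 ± 0.179 was measured between 2 groups above that level. The interaction of Agt was -10.40 ± 0.254.

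For such genes the low side sets the size of the change. Of the 124 genes with at least 2-fold movement, 43 had a mean below the filter level (32.8 to 41.1, depending on the array) in 3T3-L1 preadipocytes and 32 in brown adipocytes. With a pseudocount of 1 in place of 16 the interaction of Apod was -12.45, and with 64 it was -8.08. Its direction did not depend on this choice.

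Other members named by the same rule had various roles. Angptl1, an angiopoietin-like secreted protein, rose by 3.52 ± 0.181 in 3T3-L1 and fell by 3.60 ± 0.181 in the brown line. Its adipocyte mean in 3T3-L1 (208 ± 31.7) and its preadipocyte mean in the brown line (213 ± 39.6) were alike. Ecrg4, which encodes a secreted peptide precursor, behaved the same way, with changes of 3.35 ± 0.340 and -3.15 ± 0.340. Pdlim4, which encodes an actin-associated PDZ and LIM domain protein, had means of 12.1 ± 10.3 and 429 ± 41.8 in 3T3-L1 and of 268 ± 42.0 and 8.57 ± 0.574 in brown cells. Stc1, the glycoprotein hormone stanniocalcin 1, rose from 53.3 ± 2.71 to 415 ± 8.57 and fell from 1190 ± 206 to 85.0 ± 17.1. Another probe set of Stc1 bright enough to test did not show this pair of signs. Mest, an imprinted gene known as a marker of fat tissue expansion, had 20.3, 37.3 and 21.6 against 297, 297 and 238 in 3T3-L1, and 3054, 2744 and 2777 against 131, 98.7 and 149 in the brown line. Brown adipocytes ended below 3T3-L1 adipocytes in Mest by 1.05 ± 0.172 although brown preadipocytes had started above by 6.10 ± 0.172.

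**Figure D2:**
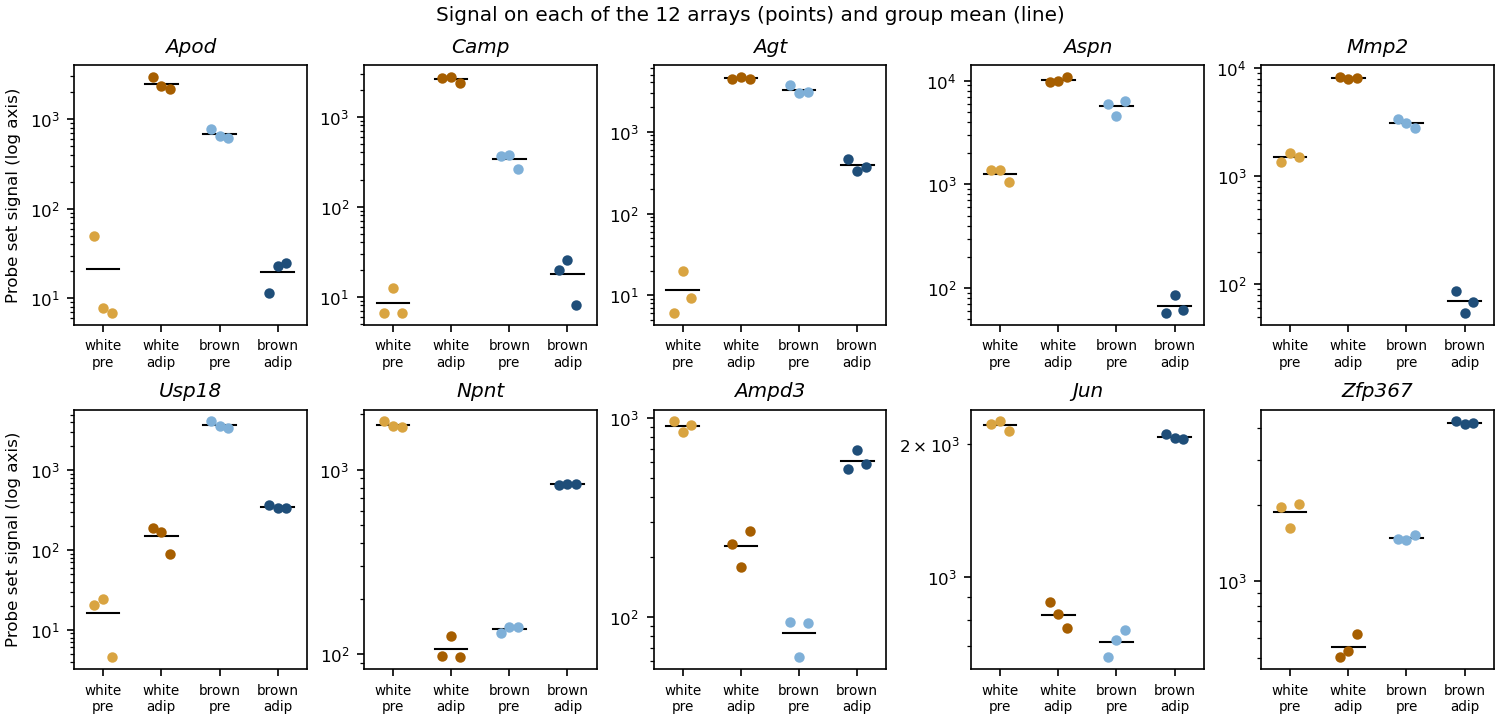
Signal of 10 opposite movers on each of the 12 arrays (points, log axis that differs between panels) with the group mean as a line, for preadipocytes (pre) and adipocytes (adip) of 3T3-L1 (white) and the brown line. Apod, Camp, Agt, Aspn and Mmp2 are high in white adipocytes and brown preadipocytes, Usp18 is highest in brown preadipocytes (3358 to 4125), Npnt, Ampd3 and Jun are high in white preadipocytes and brown adipocytes, and Zfp367 is highest in brown adipocytes (4165 to 4264).

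Extracellular matrix formed the largest block of members by function. Collagens are the fibrous scaffold of the matrix; of 18 collagen genes measured, 16 had a brown change below the white one and 0 the reverse, and 8 (44.4%) were opposite movers against 8.55% of all genes tested. The median interaction of the list was -2.43, against -0.05 over all genes tested. Of the latter, 27.4% had a brown change below the white one and 23.6% above. All 8 opposite movers of the list rose in 3T3-L1 and fell in the brown line: Col3a1, Col5a1, Col5a2, Col6a1, Col6a2, Col6a3, Col11a1 and Col14a1.

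Col6a2, a chain of the microfibril-forming collagen VI, had signals of 3733, 4294 and 3701 before and 13662, 13008 and 12287 after differentiation in 3T3-L1. In the brown line it had 16793, 16383 and 14321 before and 2217, 2143 and 2198 after. The 2 lines exchanged places, with brown preadipocytes near the level of 3T3-L1 adipocytes. Col6a1, another chain of the same trimer and its neighbour on the chromosome, changed by 1.43 ± 0.0892 and -1.87 ± 0.0892, and Col6a3 by 1.80 and -0.51. Col3a1, a chain of fibrillar collagen III, rose by 1.14 ± 0.0968 and fell by 4.11 ± 0.0968. Col11a1, a minor fibrillar collagen, had the largest collagen interaction at -7.38 ± 0.340, though 3T3-L1 preadipocytes (5.26 ± 3.36) and brown adipocytes (5.93 ± 7.83) were near the floor. The main chains of collagen I did not move oppositely: Col1a1 fell by 5.22 ± 0.134 in the brown line and changed by 0.05 ± 0.134 in 3T3-L1 (adjusted p = 0.778). The basement membrane chains Col4a1 and Col4a2 rose in both lines, Col4a1 by 1.54 in 3T3-L1 and by 0.74 in the brown line. Col8a1 fell in both lines by nearly equal amounts, 3.24 and 3.60.

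Proteoglycans and glycoproteins that bind collagen resembled the collagens in the interaction. In 3T3-L1 15 members of this list rose and 9 fell, against 13 and 3 of the collagens and 4140 and 4285 of the 13760 genes tested. Opposite movers were 33.3% of the list, against 8.55% of all genes tested. Of 27 measured, 23 had a brown change below the white one and 3 above (27.4% and 23.6% of all genes tested), with a median of -1.98. With white up, 8 moved oppositely (Dcn, Ogn, Aspn, Postn, Sparc, Fbln1, Nid1 and Nid2), and 1 did with white down (Fbln5, an elastic fibre protein). Aspn, which encodes the small leucine-rich protein asporin, had 1386, 1361 and 1045 rising to 9749, 9857 and 10858 in 3T3-L1, and 6014, 4606 and 6435 falling to 57.4, 84.7 and 60.8 in brown cells. Postn, the matricellular protein periostin, had 3667, 4608 and 4194 against 17282, 12962 and 12877 in 3T3-L1 and 12419, 12081 and 11759 against 138, 160 and 187 in the brown line. Ogn, or osteoglycin, reached 18992, 19844 and 18520 in brown preadipocytes and 100, 108 and 147 in brown adipocytes; it fell by 7.17 ± 0.155, more than any other opposite mover. In these 3 genes the brown fall was the larger part of the difference. Dcn, or decorin, was of another kind: its 3T3-L1 signals rose from 600, 847 and 685 to 7410, 6008 and 5805, while its brown signals were low throughout, 29.2, 62.7 and 58.6 before and 4.27, 4.45 and 7.68 after. A further probe set of Dcn did not have the same pair of signs. Nid2, which links laminin and collagen IV in basement membranes, went from 61.9 ± 3.93 to 395 ± 27.6 in 3T3-L1 and from 2215 ± 86.1 to 190 ± 29.8 in the brown line. Dpt (dermatopontin, a collagen-binding protein outside the list) rose by 4.56 ± 0.143 and fell by 3.08 ± 0.143.

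Enzymes that make and cut the matrix had a like interaction but a mixed 3T3-L1 change. In the list of matrix proteases, inhibitors and crosslinkers 19 of 23 had a brown change below the white one and 1 above (median -2.26). The shares over all genes tested were 27.4% and 23.6%. In 3T3-L1 9 of the list rose and 9 fell, against 13 and 3 of the collagens, and in the brown line 18 fell and 1 rose. Over the 13760 genes tested, 4140 rose and 4285 fell in 3T3-L1, and 4341 fell and 3737 rose in the brown line. Of the 23, 7 (30.4%, against 8.55% of all genes tested) were opposite movers, all with white up: Mmp2, Mmp19, Serpinh1, Ctsk, P4ha1, P4ha2 and Plod2. Mmp2, the gelatinase A protease, had signals of 1367, 1631 and 1502 before and 8291, 7871 and 8150 after differentiation in 3T3-L1. It had 3379, 3117 and 2768 before and 85.5, 54.1 and 68.5 after in the brown line. No arrays overlapped within a line, and the change was -5.20 ± 0.131 in brown against 2.42 ± 0.131 in white cells. Plod2, a lysyl hydroxylase that prepares collagen for crosslinking, rose from 316 ± 26.9 to 1512 ± 140 and fell from 3808 ± 187 to 659 ± 25.4. P4ha2, a prolyl hydroxylase subunit needed for a stable collagen helix, rose by 1.05 ± 0.121 and fell by 2.14 ± 0.121. Fap, a membrane protease of activated fibroblasts outside the list, rose by 3.82 ± 0.343 and fell by 2.61 ± 0.343.

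**Figure D3:**
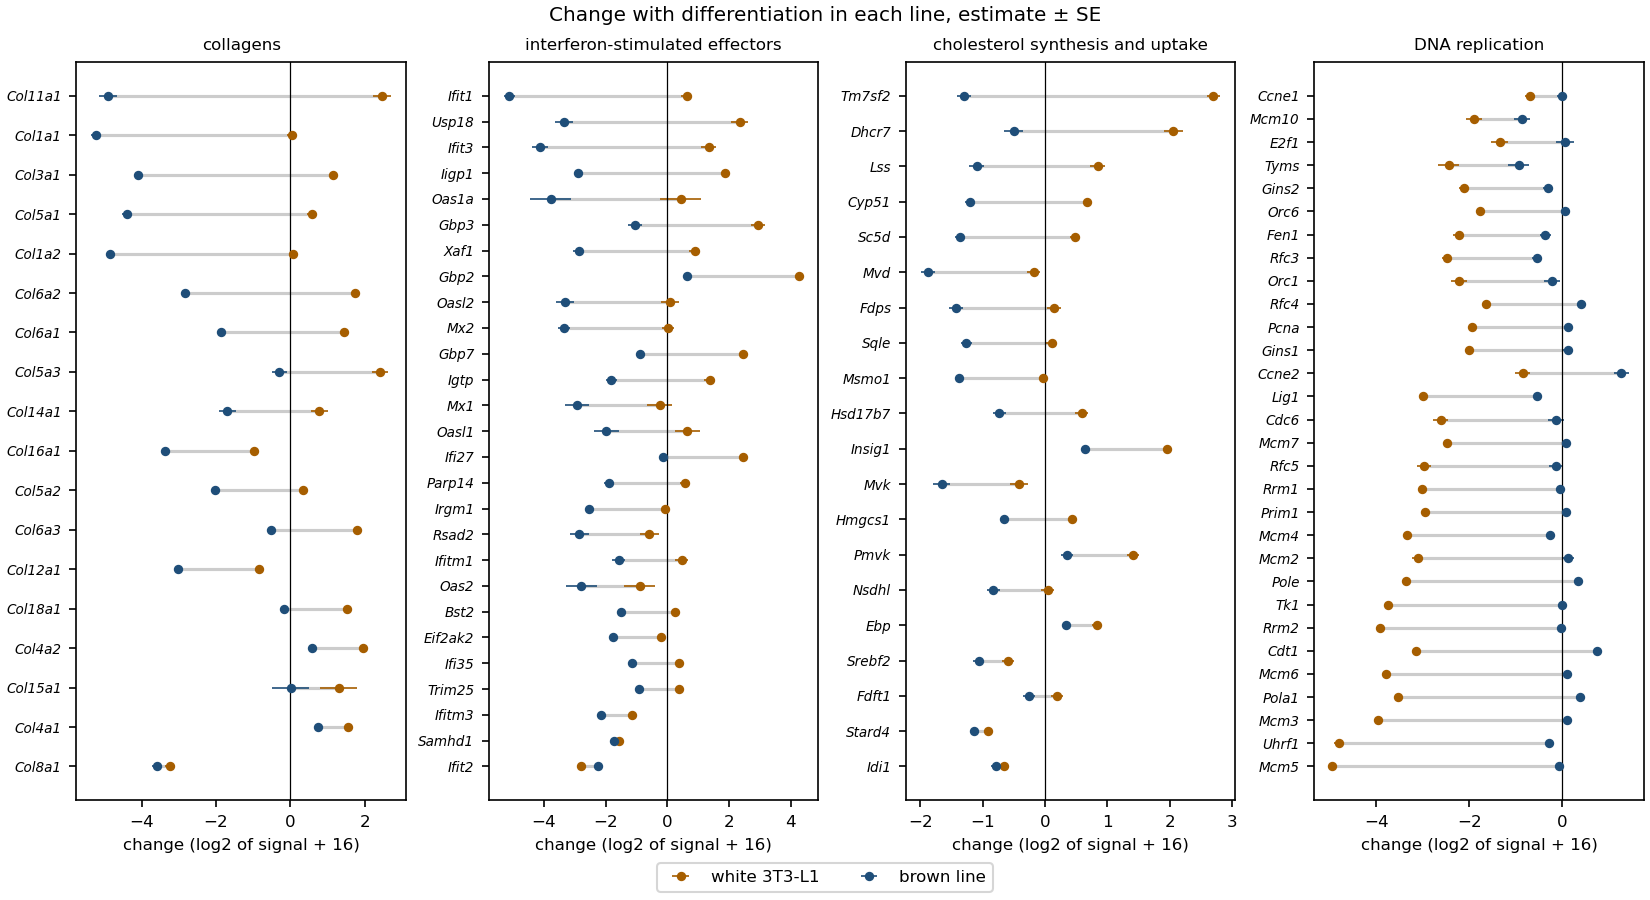
Change with differentiation of each measured collagen, interferon-stimulated effector, cholesterol gene and DNA replication gene in 3T3-L1 (brown-orange points) and in the brown line (blue points), as log2 of signal plus 16 with SE bars, ordered by the interaction. Points of a gene on opposite sides of the zero line show opposite movement: blue lies left of orange with a called interaction for 16 of 18 collagens, and right of it for all 30 replication genes.

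The lists of the interferon system also held many opposite movers. Type I interferon acts through the receptor chains IFNAR1 and IFNAR2 and the kinases JAK1 and TYK2 on genes with response elements in their promoters, whose products block viruses. Among 18 receptors, sensors and transcription factors measured, 11 had a brown change below the white one and 1 above (median -0.75). The shares over all genes tested were 27.4% and 23.6%. Of the 18, 6 (33.3%, against 8.55% of all genes tested) moved oppositely with white up: Ifnar2, Jak1, Irf7, Ifih1, Dhx58 and Tlr3. With the mean over a gene's probe sets the opposite movers of this list were 3. Ifih1, the double-stranded RNA sensor MDA5, had 45.8, 67.1 and 38.8 in 3T3-L1 preadipocytes and 220, 198 and 241 in 3T3-L1 adipocytes. It had 1909, 1808 and 1843 in brown preadipocytes and 580, 599 and 557 in brown adipocytes. Here the lines approached each other without exchanging places, and brown adipocytes stayed above 3T3-L1 adipocytes by 1.34 ± 0.134. Irf7, the factor that amplifies interferon production, had a 3T3-L1 change of 1.33 ± 0.423 that rested on dim signals (68.1, 67.8 and 7.70 before and 123, 154 and 97.4 after). Its brown signals fell from 817, 760 and 612 to 157, 120 and 108. Dhx58, an RNA sensor of the same family as Ifih1, was near the floor in 3T3-L1 on all 6 arrays (2.26 to 39.99) and fell from 1270 ± 220 to 132 ± 4.89 in brown cells; its other probe set did not share both signs.

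Of 27 interferon-stimulated effectors measured, 25 had a brown change below the white one and 1 above (27.4% and 23.6% of all genes tested). Their median interaction was -2.63. In the brown line 25 of the 27 fell (4341 of 13760 genes tested). In 3T3-L1 3 fell and 14 rose (4285 and 4140 of 13760). The opposite movers were 12 (44.4%, against 8.55% of all genes tested). All had white up: Ifit1, Ifit3, Usp18, Ifi35, Bst2, Gbp3, Gbp7, Igtp, Iigp1, Trim25, Parp14 and Xaf1. Usp18, which removes the ubiquitin-like ISG15 and dampens the receptor, had 20.4, 24.0 and 4.53 in 3T3-L1 preadipocytes and 187, 168 and 89.1 in their adipocytes. It had 4125, 3570 and 3358 in brown preadipocytes and 364, 341 and 336 in brown adipocytes. Ifit1, an RNA-binding inhibitor of translation, fell from 6798, 6282 and 5341 to 129, 215 and 148 in the brown line, while the 3T3-L1 rise, from 57.5, 49.0 and 38.5 to 75.4, 83.1 and 89.8, was small. Ifit3, its partner, had a 3T3-L1 rise of 1.34 ± 0.250 and a brown fall of 4.12 ± 0.250. Gbp3, a guanylate-binding GTPase, was the converse, rising by 2.94 ± 0.222 in 3T3-L1 and falling by 1.05 ± 0.222 in brown cells. In these 4 effectors brown preadipocytes were the highest group on every array, at 2338 to 6798.

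Some members with at least 2-fold movement lay next to each other on a chromosome, counted over genes tested. Their shared direction was fixed by the way members were chosen, and how often neighbours occur among other genes was not computed. Igtp and Irgm2, neighbouring interferon-inducible GTPases, had interactions of -3.19 ± 0.242 and -4.60 ± 0.409; Igtp rose by 1.37 and fell by 1.82, and Irgm2 rose by 1.94 and fell by 2.65. Other neighbours among the 124 were Gm4951 with Iigp1, Dtx3l with Parp9, Fap with Ifih1, Col6a2 with Col6a1, Pdlim4 with P4ha2, Mmp2 with Lpcat2, Plscr4 with Plod2, Scara3 with Clu, and the run Nat8f3, Nat8f5 and Nat8. Near-identical copies such as the Nat8 genes may share probes.

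The promoters of Ifit3, Igtp and their fellow member Irgm2, which is outside the effector list, are shown since they carry an interferon-stimulated response element (letters GAAANNGAAA, searched on both strands) within a group of members of the same direction. Each window runs from 250 bases before to 50 after the start of a RefSeq transcript in GRCm38.p6, and capitals mark the element in either orientation. The Ifit3 window lies at chr19:34583279-34583578 on the plus strand and holds 2 elements. The Igtp window lies at chr11:58199306-58199605 and the Irgm2 window at chr11:58214727-58215026, both on the plus strand, and each holds 1 element.
Ifit3: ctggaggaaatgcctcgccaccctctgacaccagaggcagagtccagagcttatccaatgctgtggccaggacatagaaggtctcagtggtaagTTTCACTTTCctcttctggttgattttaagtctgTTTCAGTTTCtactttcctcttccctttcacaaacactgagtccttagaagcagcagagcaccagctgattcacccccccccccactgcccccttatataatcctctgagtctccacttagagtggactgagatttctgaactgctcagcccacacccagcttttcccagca
Igtp: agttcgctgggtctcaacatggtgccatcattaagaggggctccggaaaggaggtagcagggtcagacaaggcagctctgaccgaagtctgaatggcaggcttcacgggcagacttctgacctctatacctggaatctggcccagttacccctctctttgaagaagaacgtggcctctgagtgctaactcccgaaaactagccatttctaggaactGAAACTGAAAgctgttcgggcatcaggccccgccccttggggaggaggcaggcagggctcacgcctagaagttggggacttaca
Irgm2: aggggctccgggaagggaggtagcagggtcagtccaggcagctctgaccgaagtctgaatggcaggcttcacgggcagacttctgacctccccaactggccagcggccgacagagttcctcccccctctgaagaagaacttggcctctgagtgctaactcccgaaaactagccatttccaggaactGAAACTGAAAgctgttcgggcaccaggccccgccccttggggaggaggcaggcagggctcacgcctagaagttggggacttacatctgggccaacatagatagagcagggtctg

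Among effectors of the list with a RefSeq window, 12 of 20 (60%) held this element, and 6 of 9 opposite movers among them (66.7%). The share was 3.66% over 11039 genes tested that had a window and 3.44% over all 32851 windows. Among the 89 of 124 strongly moving genes with a window it was 9 (10.1%). The gamma-activated site TTCNNNGAA was held by 9 of 20 effectors (45.0%) and by 8.42% of genes tested. These are matches of letters, not shown to be bound.

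Antigen presentation and complement held 3 of 13 (23.1%) and 2 of 7 (28.6%) opposite movers, against 8.55% of all genes tested. Of the 13 peptide loading and immunoproteasome genes, 9 had a brown change below the white one (5 with the mean of probe sets). In 3T3-L1 12 rose, and in the brown line 6 rose while 3 fell. Over the 13760 genes tested 27.4% lay below, 4140 rose in 3T3-L1, and 3737 rose while 4341 fell in the brown line. The 3 opposite movers of the 13 were Tap1, Nlrc5 and Calr. Nlrc5, the transactivator of MHC class I genes, rose from 23.3 ± 6.34 to 263 ± 19.7 in 3T3-L1 and fell from 970 ± 105 to 657 ± 74.8 in brown cells. Tap1, a subunit of the peptide transporter, rose by 0.85 ± 0.131 and fell by 0.66 ± 0.131, but with the mean of its probe sets in place of the brightest the interaction of Tap1 was -0.0017 and no longer called. Among complement genes 5 of 7 had a brown change below the white one (27.4% of all genes tested), or 2 when less specific probe sets were dropped. C1ra and C1s1, proteases of the first component, moved oppositely: C1s1 averaged 1086 ± 242 and 1806 ± 166 in 3T3-L1 and 2335 ± 174 and 304 ± 30.4 in brown cells. Of 20 chemokines and cytokines, 0 were opposite movers (8.55% of all genes tested). In the brown line 14 fell and in 3T3-L1 9, where 4341 and 4285 of the 13760 genes tested fell. Il1rn, the interleukin 1 receptor antagonist, had the largest difference of this list (-6.67): it averaged 8661 in brown preadipocytes and 73.9 in brown adipocytes, with a 3T3-L1 change of 0.08 that was not called.

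The cholesterol list held opposite movers as well, with smaller changes. Of 20 genes of synthesis and uptake, 18 had a brown change below the white one and 0 above (27.4% and 23.6% of all genes tested). Their median was -1.32. In the brown line 17 fell and 3 rose (4341 and 3737 of 13760 genes tested). In 3T3-L1 10 rose and 4 fell (4140 and 4285 of 13760). The opposite movers were Hmgcs1, Lss, Cyp51, Tm7sf2, Hsd17b7, Sc5d and Dhcr7 (35.0%, against 8.55% of all genes tested). They act from the start of the mevalonate pathway to its last steps. Tm7sf2, a sterol reductase, had 347, 438 and 382 in 3T3-L1 preadipocytes and 2560, 2721 and 2521 in their adipocytes. It had 619, 700 and 608 in brown preadipocytes and 262, 280 and 218 in brown adipocytes. Dhcr7, which makes cholesterol from its last precursor, rose by 2.05 ± 0.149 and fell by 0.50 ± 0.149. Cyp51, the lanosterol demethylase, rose from 2365 ± 8.91 to 3789 ± 106 and fell from 5120 ± 392 to 2212 ± 154. Lss, or lanosterol synthase, rose by 0.84 ± 0.119 and fell by 1.10 ± 0.119, but when less specific probe sets were dropped its interaction was 0.0981 (adjusted p = 0.536), so it rested on 1 probe set. Hmgcs1, which commits acetyl units to the pathway and is named here for its promoter, started close in the lines (13631 ± 698 and 13801 ± 331) and ended at 18367 ± 892 and 8752 ± 477.

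The Hmgcs1 window is shown since it was the 1 of 16 cholesterol promoters with the letters TCACNCCAC of the sterol response element, which 1.5% of genes tested held. It lies at chr13:119690101-119690400 on the plus strand of GRCm38.p6, with the element in capitals. CCAAT was held by all 16 windows of the list and by 42.4% of genes tested.
Hmgcs1: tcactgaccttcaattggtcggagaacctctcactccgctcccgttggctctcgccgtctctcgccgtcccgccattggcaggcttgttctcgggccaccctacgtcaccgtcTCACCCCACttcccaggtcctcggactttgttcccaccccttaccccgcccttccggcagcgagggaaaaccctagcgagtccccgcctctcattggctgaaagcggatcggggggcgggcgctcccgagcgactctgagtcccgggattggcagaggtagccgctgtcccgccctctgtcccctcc

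Signalling genes that rose in 3T3-L1 and fell in brown cells included growth factors and their receptors. Of 29 growth factors, receptors and IGF binding proteins, 19 had a brown change below the white one and 4 above (median -1.22). All genes tested gave 27.4% below and 23.6% above. Of the 29, 5 moved oppositely (17.2%, against 8.55% of all genes tested): Igf2, Igfbp4, Igfbp7, Angpt1 and Egfr. Igf2, a fetal growth factor, had 79.3, 59.6 and 48.7 in 3T3-L1 preadipocytes and 498, 400 and 746 in their adipocytes. It had 132, 148 and 159 in brown preadipocytes and 18.5, 13.3 and 35.1 in brown adipocytes. Egfr, the epidermal growth factor receptor, had 2414, 2448 and 2400 in brown preadipocytes but 323, 276 and 312 in brown adipocytes, next to the 334, 273 and 289 of 3T3-L1 adipocytes. The lines came close in Egfr after starting 4.09 ± 0.110 apart; after differentiation they differed by 0.03 ± 0.110 (adjusted p = 0.860). Errfi1, a feedback inhibitor of that receptor, moved the same way, from 815 ± 56.2 to 2698 ± 177 and from 9083 ± 342 to 1514 ± 46.9.

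Of 20 Wnt genes 11 had a brown change below the white one and 1 above, where all genes tested gave 27.4% and 23.6%. Wnt5a, Fzd5 and Tcf7l2 moved oppositely, 3 of 20 against 8.55% of all genes tested. Fzd5, a Wnt receptor, rose by 1.52 ± 0.0931 and fell by 1.43 ± 0.0931, although a further probe set did not show both signs. Among 17 guidance cues and receptors, 29.4% moved oppositely, against 8.55% of all genes tested. Slit3, Robo1 and Ntn1 rose in 3T3-L1 and fell in the brown line. The neuropilins Nrp1 and Nrp2, co-receptors of semaphorins and VEGF, did the reverse. Nrp2 went from 2108 ± 228 to 508 ± 58.8 in 3T3-L1 and from 1272 ± 78.7 to 2441 ± 117 in the brown line. Slit3, a secreted guidance cue, started close in the lines (130 ± 31.8 and 120 ± 3.95) and ended at 401 ± 14.3 and 19.8 ± 13.2. Chrdl1, a BMP antagonist, rose by 3.88 ± 0.141 and fell by 0.88 ± 0.141. Tgfbr2, a TGF-beta receptor, fell by 0.58 ± 0.105 and rose by 0.69 ± 0.105. They were the only opposite movers of 30 TGF-beta and BMP genes, 6.67% of the list and below the 8.55% of all genes tested.

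Of 24 adipogenic transcription factors and coregulators, 18 rose in 3T3-L1 and 16 in brown cells (4140 and 3737 of 13760 genes tested). In the interaction 8 of the 24 had a brown change above the white one and 10 below (23.6% and 27.4% of all genes tested). Opposite movers were 3 (12.5%, against 8.55% of all genes tested). Zfp423, which marks preadipocytes and favours the white state, had 49.7, 84.5 and 73.9 in 3T3-L1 preadipocytes and 671, 621 and 605 in their adipocytes. It had 710, 691 and 751 in brown preadipocytes and 360, 431 and 371 in brown adipocytes. Klf5, an early adipogenic factor, did the reverse: it fell from 969, 902 and 1021 to 88.1, 97.6 and 85.7 in 3T3-L1 and rose from 40.6, 53.0 and 31.6 to 98.2, 110 and 73.0 in the brown line, so the lines ended 0.03 ± 0.152 apart. Cebpd was the other.

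Stress and redox genes gave single cases. Ddit4, an inhibitor of mTORC1 that responds to low oxygen and glucocorticoid, rose from 1919 ± 230 to 10050 ± 837 and fell from 2227 ± 139 to 795 ± 162, from nearly equal starting levels (difference 0.22 ± 0.140, adjusted p = 0.219). Hmox1, or heme oxygenase 1, rose by 2.93 ± 0.161 and fell by 0.68 ± 0.161. Gpx3, a secreted glutathione peroxidase, fell from 29.8 ± 18 to 6.16 ± 1.70 in 3T3-L1, both near the floor, and rose from 423 ± 26.6 to 904 ± 186 in brown cells.

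Genes that fell in 3T3-L1 and rose in the brown line were fewer at high fold and of mixed function. Npnt, the integrin ligand nephronectin, had the second most positive interaction of all genes at 6.34 ± 0.125. Its signals were 1833, 1730 and 1716 in 3T3-L1 preadipocytes and 97.5, 126 and 96.5 in their adipocytes, against 131, 141 and 140 in brown preadipocytes and 831, 841 and 833 in brown adipocytes. The lines exchanged places with all arrays of a group close together. Ampd3, an AMP deaminase, had 965, 849 and 929 before and 234, 178 and 270 after in 3T3-L1, and 94.3, 63.0 and 93.1 before and 555, 694 and 589 after in brown cells. Jun, a subunit of the AP-1 transcription factor, had 2221, 2250 and 2143 against 877, 824 and 766 in 3T3-L1 and 659, 719 and 760 against 2107, 2058 and 2056 in the brown line, almost a mirror image. Flvcr1, a heme and choline transporter, changed by -1.34 ± 0.114 and 1.49 ± 0.114 with a like exchange of levels.

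Zdhhc2, a palmitoyltransferase, fell by 1.78 ± 0.260 and rose by 2.40 ± 0.260, with a further probe set that did not share both signs. Slco4a1, an organic anion transporter, fell by 3.61 ± 0.321 but rose only to 46.1, 45.5 and 68.0 in brown adipocytes, just above the filter level. Adcyap1r1, a receptor for the neuropeptide PACAP, fell by 1.27 ± 0.285 and rose by 1.94 ± 0.285, from brown preadipocyte signals of 3.59, 23.5 and 4.90. Rassf7, of the Ras association domain family, went from 800 ± 48.0 to 274 ± 15.8 and from 212 ± 55 to 487 ± 88.1.

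Zfp367, a zinc finger protein, had 1966, 1617 and 2019 in 3T3-L1 preadipocytes and 502, 532 and 620 in their adipocytes, against 1473, 1452 and 1516 in brown preadipocytes and 4264, 4165 and 4199 in brown adipocytes. The lines started close and ended 2.90 ± 0.0978 apart. Ube2t, a ubiquitin-conjugating enzyme of DNA crosslink repair, fell from 760 ± 106 to 140 ± 8.16 and rose from 1124 ± 36.8 to 2508 ± 173. Dna2, a nuclease and helicase that processes replication intermediates, fell by 1.53 ± 0.176 and rose by 1.24 ± 0.176. E2f2, a factor that drives S phase genes, was also among the 21 and is named after its values were seen, with brown signals of 111, 159 and 134 rising to 292, 268 and 301.

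The replication list as a whole showed where the lines parted. All 30 measured genes fell in 3T3-L1 (4285 of 13760 genes tested). All 30 had a brown change above the white one (23.6% of all genes tested), with a median interaction of 2.52. In the brown line 5 rose, 8 fell and 17 were not called (3737, 4341 and 5682 of the genes tested). The 5 that rose were opposite movers (16.7%, against 8.55% of all genes tested), and none of them met the 2-fold rule in both lines. Mcm5, a subunit of the replicative helicase, had 7008, 6372 and 6693 before and 195, 206 and 205 after differentiation in 3T3-L1. It had 9191, 9343 and 8459 before and 8527, 8325 and 8748 after in the brown line, a change of -0.08 ± 0.0629 (adjusted p = 0.333). The 5 opposite movers were Ccne2, Cdt1, Pole, Pola1 and Rfc4, of which 2 were left when arrays were scaled to the hybridization controls, while the 30 interactions stayed called. Cdt1, which loads the helicase at origins, fell from 6168 ± 331 to 688 ± 59.6 and rose from 8373 ± 471 to 14102 ± 350. Ccne2, or cyclin E2, which starts S phase, had 1794, 1379 and 1715 against 844, 784 and 1064 in 3T3-L1 and 2636, 2104 and 3067 against 6388, 6341 and 5920 in brown cells. Pola1 and Pole, catalytic subunits of replicative polymerases, rose by 0.38 ± 0.0899 and 0.33 ± 0.0854 in the brown line against falls of 3.53 and 3.36 in 3T3-L1.

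Mitosis genes differed from this in the brown line. All 23 measured fell in 3T3-L1 and all 23 had a brown change above the white one (median 2.70). However, 22 of them fell in the brown line as well and 0 moved oppositely. Of 13760 genes tested, 4285 fell in 3T3-L1 and 4341 in the brown line, 23.6% lay above and 8.55% moved oppositely. Mki67, the proliferation antigen Ki-67, fell from 6564 ± 341 to 442 ± 56.4 in 3T3-L1 and from 7737 ± 659 to 5246 ± 304 in brown cells. Foxm1, the factor that drives mitotic genes, fell by 4.18 ± 0.175 and by 0.60 ± 0.175.

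A promoter window of Zfp367 is shown for the letters of an E2F site (TTTCCCGC or TTTGGCGC on either strand), a motif added after these values were seen. The window lies at chr13:64153150-64153449 on the minus strand of GRCm38.p6, and capitals mark the site, which spans the transcript start. Among genes that fell in 3T3-L1 and rose in the brown line, 31 of 413 windows (7.51%) held such letters, against 8 of 543 (1.47%) of the reverse kind and 3.30% of genes tested. In the replication list the share was 8 of 25 (32.0%).
Zfp367: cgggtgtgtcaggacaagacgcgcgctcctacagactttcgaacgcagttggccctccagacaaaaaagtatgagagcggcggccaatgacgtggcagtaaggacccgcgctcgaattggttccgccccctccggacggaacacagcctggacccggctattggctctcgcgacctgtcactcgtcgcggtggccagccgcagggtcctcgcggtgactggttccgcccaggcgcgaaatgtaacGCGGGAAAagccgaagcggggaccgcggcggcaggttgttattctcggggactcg

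**Figure D4:**
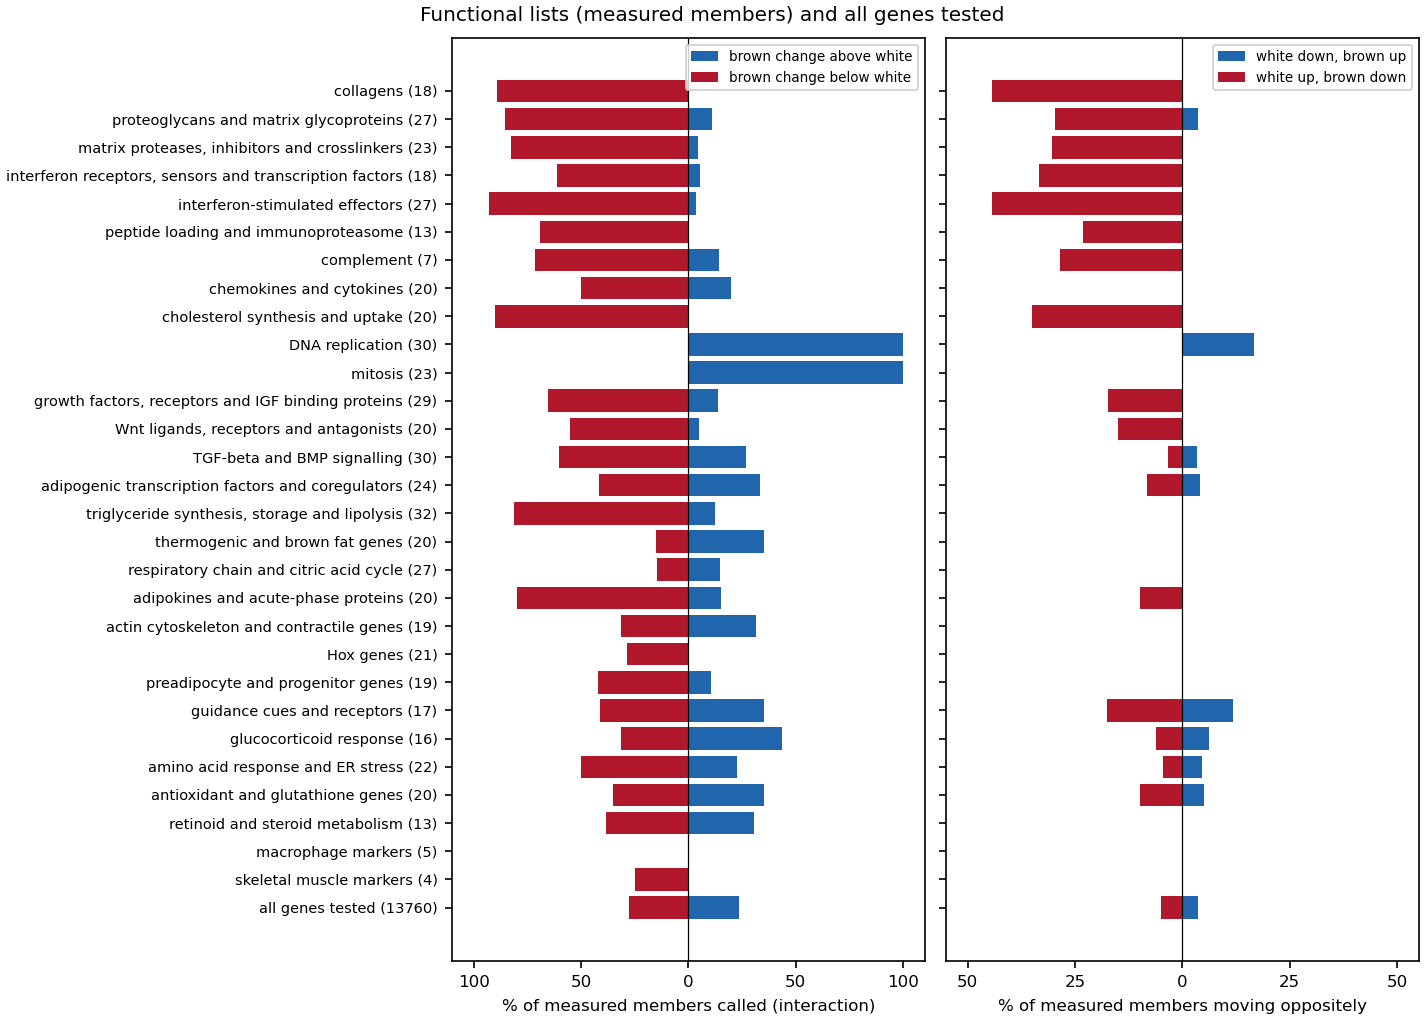
Share of the measured members of each functional list (number in brackets) called in the interaction (left) and moving oppositely (right), with bars to the right for a brown change above the white one or for white down and brown up, and to the left for the reverse. All genes tested are the lowest bar, at 27.4% and 23.6% in the interaction and at 4.88% and 3.67% for opposite movement.

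Lists at the core of fat storage differed mainly in size of change. Of 32 genes of triglyceride synthesis, storage and lipolysis, 30 rose in 3T3-L1, 28 rose in the brown line and 0 moved oppositely. Yet 26 had a brown change below the white one (median -1.62). Of 13760 genes tested, 4140 and 3737 rose, 8.55% moved oppositely and 27.4% lay below. G0s2, an inhibitor of the lipase ATGL, went from 3.24, 5.26 and 1.29 to 24080, 24926 and 22682 in 3T3-L1 and from 4719, 4828 and 4540 to 12580, 14450 and 13542 in brown cells. Its interaction of -8.76 ± 0.122 (adjusted p = 1.51e-10) came with brown preadipocytes that already held much of the transcript. Car3, a carbonic anhydrase abundant in fat, and Hp, the hemoglobin-binding protein haptoglobin, had interactions of -8.45 ± 0.377 and -7.62 ± 0.164 with the same high start in the brown line. Of 20 adipokines and acute-phase proteins 16 had a brown change below the white one (27.4% of all genes tested), among them the opposite movers Apod and Agt. The 3 with it above (23.6% of all genes tested) were Lrg1, Lep and Rbp4. Lrg1, a secreted leucine-rich glycoprotein, rose in both lines, by 3.23 ± 0.0966 in 3T3-L1 and by 5.67 ± 0.0966 in brown cells. The 27 respiratory chain and citric acid cycle genes rose in both lines with few exceptions (25 in 3T3-L1 and 26 in brown cells). In the interaction 19 of them had no call. Of 13760 genes tested, 4140 rose in 3T3-L1, 3737 rose in the brown line and 6735 had no call in the interaction. Of 20 thermogenic and brown fat genes 7 had a brown change above the white one, 3 below and 10 no call, where all genes tested gave 23.6% above and 27.4% below. Cidea, which coats lipid droplets in brown fat, reached 6365, 6960 and 6936 in brown adipocytes and 71.1, 91.0 and 27.9 in 3T3-L1 adipocytes, the most positive interaction of all at 6.68 ± 0.548.

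Opposite movers also differed in how the lines were ordered before and after differentiation. Since the difference between adipocytes equals the difference between preadipocytes plus the interaction, these counts only describe where the levels lay. Of the 124 genes with white up and brown down at 2-fold, 108 were called higher in brown than in 3T3-L1 preadipocytes, and 94 were called higher in 3T3-L1 than in brown adipocytes. For 78 (62.9%) the order of the lines was reversed with differentiation, as in Col6a2. Of the 21 genes of the reverse kind, 17 started higher in 3T3-L1, 15 ended higher in brown cells and 11 (52.4%) were reversed, as in Npnt. Over all 672 and 505 members the order was reversed for 313 (46.6%) and 201 (39.8%). Arrays of preadipocytes and adipocytes did not overlap within either line for 652 of the 672 and 479 of the 505, and for 124 of 124 and 20 of 21 at 2-fold. Members had to be called in both lines, so these counts follow largely from the choice. The share over all genes tested was not computed.

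Probe sets that the rule did not use gave a second measure on the same arrays. Among the opposite movers at 2-fold, 69 had further probe sets bright enough to test, 111 in all, and 93 of these (83.8%) had the same pair of signs. Over all opposite movers the share was 767 of 1226 probe sets of 686 members (62.6%), so the small movers depended more on the probe set. At the edge of the rule lay Dck (largest adjusted p 0.0499) and A630026N12Rik inside, and Irx3 (0.0500243) and Psma5 (0.0500468) just outside.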

How the data were processed

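Total RNA of 12 cell samples was labelled and hybridised to 3' expression arrays. Per the submitters' processing notes the deposited signal intensity values, 1 per probe set and array on a linear scale, were made with Affymetrix Expression Console. The version of that program and the algorithm were not given in the sources used here. Each array had a trimmed mean of 500.003 to 500.004, which hides a change in total RNA per cell. No counts lie behind a signal, so the number of arrays limits the precision.

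Of 45101 probe sets, 34945 had 1 gene symbol, 932 several, 9160 none and 64 were controls. The brightest single-symbol probe set stood for each of 18193 genes, and 4433 genes not above the 40th percentile of their array on at least 3 arrays were left out. log2(signal + 16) was fitted with limma 3.58.1 (R 4.3.3; lmFit on 4 group means, eBayes, 8 residual and 1.81 prior degrees of freedom), with two-sided p-values adjusted by Benjamini-Hochberg over 13760 genes. The fit was tested on simulated data. The exact tests and the alternative settings were also run in R. Most other tables and the plots were made in Python 3.11.15 with pandas 2.3.3, matplotlib 3.10.9, numpy 2.4.6 and scipy 1.17.1.

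Promoter windows came from RefSeq (GRCm38.p6) by symbol. Gene order came from the RefSeq gene table of that assembly; the array files name no build.

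The members, the gene lists and the rule for named genes were chosen with earlier results of these data known. Named by rule were the 12 opposite movers in each direction with the largest smaller change. These were taken only among opposite movers whose preadipocyte and adipocyte arrays did not overlap in either line. The rule also named the 10 most positive and 10 most negative interactions and, per list, the 4 members with the largest interaction. It further named list members that moved oppositely by 2-fold, and Lrg1, Adipoq, Pparg, Cebpa, Fabp4, Ucp1, Dlk1 and Lep. Opposite movers of a list outside this rule are named for most lists, as its members. E2f2, Irgm2, Rbp4, Col4a1, Col4a2, Col8a1, Col6a3, Cdt1, Ccne2, Pole, Tgfbr2 and Hmgcs1, given with values or singled out, were chosen after their values were seen, as were the neighbour pairs and the E2F letters. The alternatives were other pseudocounts, scalings, filters, probe set choices, moderation and thresholds, a replicate block, and leaving out each array.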

Additional observations from a re-analysis of the deposited data

Results flagged for a closer look

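The difference between the lines, tested by the interaction term in limma, was called for 3248 genes with the brown change above the white one and for 3777 genes with it below, a balance that turned with equal medians (3707 and 3154). At 2-fold or more in both lines, 124 genes rose in 3T3-L1 and fell in the brown line and 21 did the reverse, or 79 and 11 with a pseudocount of 64. The extremes of opposite movement were Apod, with an interaction of -10.54 ± 0.503 (SE, adjusted p = 1.01e-07), and Npnt, with 6.34 ± 0.125 (adjusted p = 1.15e-09). All 3 arrays of each group lay on the same side for these 2 genes, which the rule that named them required. The parts of the line itself, its medium and its harvest day cannot be told apart here.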

How the results depend on the processing

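The scaling, signals near the floor, the choice of probe set and 3 arrays per group limit these results. At 2-fold, genes with white down and brown up were 33 with a pseudocount of 1, 11 with 64 and 10 with the mean of probe sets, and genes with white up and brown down were 79 with a pseudocount of 64. At an adjusted p under 0.01 the opposite movers were 436 with white up and 300 with white down. Of the 1177 opposite movers, 684 were still opposite and called after scaling to the hybridization controls, which moved the median change of all genes from 0.02 to -0.23 (log2) in 3T3-L1 and from -0.03 to -0.22 in brown cells, and 78 had a sign turned; of the 145 at 2-fold, 143 were kept. With the mean of probe sets 771 and 138 were kept. Equal medians moved the median interaction from -0.05 to 0.06. With less specific probe sets dropped, the interaction of C2 (0.0181), the interaction of Lss (0.0981) and the interaction of Dlk1 (0.9452, adjusted p = 0.0136) turned sign, since another probe set stood for the gene. Leaving out 1 array kept 1001 to 1065 of the 1177 and 140 to 144 of the 145, and gave 429 to 504 genes with white down and 602 to 666 with white up. Over all named genes and alternatives, 3747 values kept direction and call, 34 lost the call, 9 gained one and 3 turned sign; of list counts 2907 stayed within 1.5 times and 93 did not. The cause of these shifts was not tested.

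Replicate numbers are shared between groups in the labels. Same-numbered arrays did not clearly deviate together (correlations of -0.029 to 0.067 over 18 pairs, against -0.042 to 0.038 over 36 pairs of different number). Such weak correlations cannot exclude that the numbers pair the samples. With the replicate number as a block, 3178 genes had the brown change above and 3707 below, and 1091 of the 1177 opposite movers were kept.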
